A study of Mus musculus with 2 samples.

Results

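The surface genes of BM LSKs followed here, in the Scl/tTA-BA model of chronic myelogenous leukemia, were Kit, Ly6a, Ly6e, Ly6c2, Cd34, Cd48, Cd27, Fcgr2b and Fcgr3. They were selected by gene symbol, and each symbol matched 1 row, giving 9 of the 34745 genes in the deposited tables. LSKs are bone marrow cells that lack lineage antigens and carry Sca1 and c-Kit on their surface, and they hold the stem cells and the earliest progenitors of the blood. Both groups came from double transgenic Scl/tTA-BA mice on the C57BL/6 background, in which tTA, under Scl control, drives the TRE-BA transgene, which encodes BCR-ABL (BA), in early blood cells when doxycycline is no longer given. The week-0 library came from mice kept on doxycycline and the week-3 library from mice 3 weeks after its withdrawal. Each library was made from the LSKs of 3 mice mixed before sequencing, and the ages of the mice were not given in the sources used here. With 1 library per time point the spread between mice is unknown, so every difference below is between these 2 libraries and has no replicate check. In sorted bulk samples of this kind, fewer cells that express a gene and less of its RNA per cell cannot be told apart.

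The proteins of these genes are the handles by which early blood cells are sorted. c-Kit, the receptor for stem cell factor, and Sca1, the product of Ly6a, define the LSK gate itself. CD34, CD48 and CD27 divide the gate into cells nearer to or further from the long-term stem cell, with CD48 known to be low on the most immature cells. An antibody against CD16/32 binds the Fc receptors encoded by Fcgr3 and Fcgr2b and is used to separate granulocyte and monocyte progenitors from other progenitors, and Ly6C, encoded by Ly6c2 and its neighbour Ly6c1, rises as cells become monocytes. Lineage antigens, Sca1 and c-Kit were used for the sort at both time points, and whether the gates were set alike is not given in the sources used here. The Gr-1 antibody of the usual lineage panels binds Ly6G and also Ly6C, so the product of Ly6c2 may have been part of the lineage selection.

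Several of these genes have close relatives, which matters for counting reads. Ly6e, Ly6a, Ly6c1 and Ly6c2 lie close together on chromosome 15 of GRCm38, and the first 60 coding bases of each are shown to let their likeness be seen. They were read from GENCODE M21 transcripts, 5′ to 3′ on the coding strand, and a capital marks a base that differs from Ly6c2 at the same position, counted from the start codon. The stretches lie within 1 coding exon each, at chr15:75111608-75111667 (minus strand) for Ly6c2, chr15:75048452-75048511 (minus) for Ly6c1, chr15:74997545-74997604 (minus) for Ly6a and chr15:74957808-74957867 (plus) for Ly6e.
Ly6c2: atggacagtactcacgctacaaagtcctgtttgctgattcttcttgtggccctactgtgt
Ly6c1: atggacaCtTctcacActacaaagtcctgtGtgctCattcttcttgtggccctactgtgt
Ly6a: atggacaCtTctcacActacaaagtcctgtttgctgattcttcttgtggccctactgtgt
Ly6e: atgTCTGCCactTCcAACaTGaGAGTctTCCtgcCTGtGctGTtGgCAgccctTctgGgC

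In this stretch Ly6c1 differed from Ly6c2 at 5 bases, Ly6a at 3 and Ly6e at 32. Over the closest pair of complete coding sequences, Ly6c2 was 97.7% identical to Ly6c1, 81.6% to Ly6a and 50.2% to Ly6e. Of the 100-base windows along the Ly6c2 transcript, 15.8% were also found in Ly6c1, whereas no window of Ly6a or Ly6e was found in another gene. Fcgr3 and Fcgr2b are the other related members, with 75.4% identity between their closest coding sequences. Their longest stretch without a difference was 129 coding bases, bases 263 to 391 of Fcgr3, spread over 2 exons between chr1:171054167-171057792 on the minus strand. In Fcgr2b it covers coding bases 278 to 406, between chr1:170966674-170968081 on the minus strand. It is printed in lower case throughout because no base differs.
Fcgr3 and Fcgr2b: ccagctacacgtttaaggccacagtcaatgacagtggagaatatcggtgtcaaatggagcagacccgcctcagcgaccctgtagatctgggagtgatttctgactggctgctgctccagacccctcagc

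A read of 100 bases inside this stretch fits either receptor. Windows found in Fcgr2b as well made up 3.53% of those along the Fcgr3 transcript. Along the Fcgr2b transcript, 6.79% of the windows were found in other genes, Cplx2 and Fcgr3 among them. How the authors' counting treated reads that fit 2 genes is not given in the sources used here, and values of Ly6c2 and Ly6c1 in particular may share reads.

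Reads assigned to genes totalled 6356164 for week-0 and 3886695 for week-3. A gene with the same share of the reads in both libraries is thus counted more precisely at week-0. Every one of these 9 genes had at least 174 reads in each library. The change of a gene is given as the ratio of its deposited FPKM at week-3 to that at week-0, with an exact Clopper-Pearson 95% interval that covers counting error only. A gene past the 2-fold limit had a ratio of at least 2 or at most 0.5. Over the 12192 genes with at least 20 reads in both libraries together, 26.2% were past this limit, 10.6% higher and 15.6% lower at week-3, and the median log2 ratio was 0.07. Mouse Bcr had 371 week-0 and 108 week-3 reads, and Abl1 had 395 and 144, but these rows do not separate endogenous from transgene reads and so are no check of induction.

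The differences were uneven over the 9 genes. Ly6c2, Fcgr3 and Fcgr2b were past the 2-fold limit and higher at week-3. Cd48 was higher by less than 2-fold, Kit, Ly6a, Cd34 and Cd27 were lower by less than 2-fold, and Ly6e was nearly level. Thus 3 of 9 genes were past the limit upwards and 0 downwards, beside 10.6% and 15.6% of all tested genes. The median log2 ratio of the 9 genes was 0.11. The plot of FPKM shows both libraries for every gene.

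**Figure D1:**
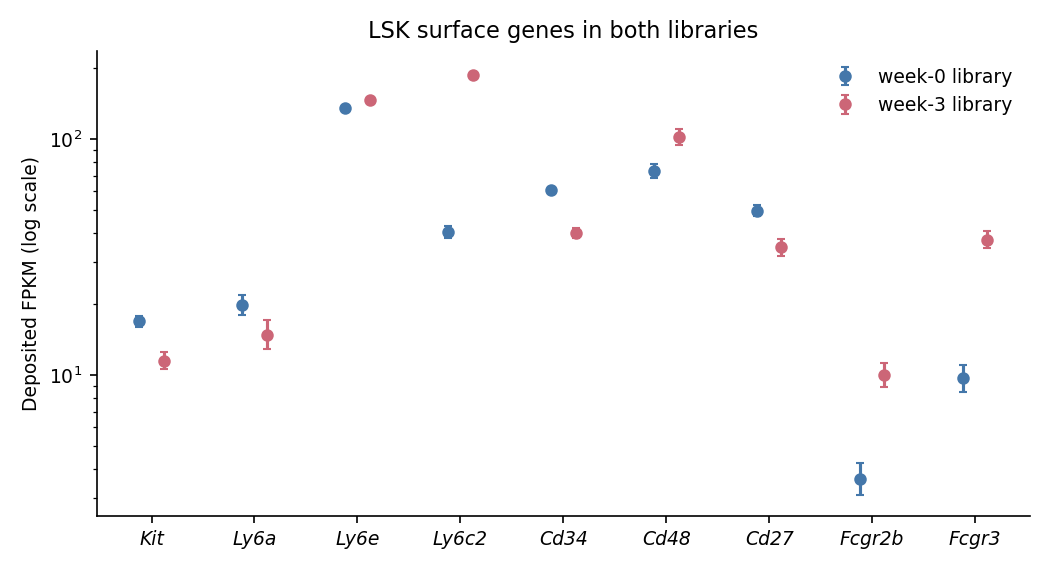
Deposited FPKM (vertical axis, log scale) of the 9 surface genes in the week-0 library (blue) and the week-3 library (red); bars are exact Poisson 95% intervals of the reads, covering counting error only, with 1 library per point. Ly6c2, Fcgr3 and Fcgr2b are separated most between libraries, with week-3 above week-0, and Kit, Ly6a, Cd34 and Cd27 have week-3 below week-0.

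The sorting receptors come first. Kit (ENSMUSG00000005672, plus strand of chromosome 5, from 75574916 to 75656722) encodes the receptor tyrosine kinase c-Kit. Its 1391 week-0 reads gave an FPKM of 16.9, and its 580 week-3 reads gave 11.5. The week-3 level was lower, at 0.682 times that of week-0 (95% interval 0.618 to 0.752), a log2 ratio of -0.55. Ly6a (ENSMUSG00000075602, minus strand of chromosome 15, from 74994877 to 74998031) encodes Sca1, a small protein held in the membrane by a lipid anchor. Its 434 reads in the week-0 library gave an FPKM of 19.8, and its 199 reads in the week-3 library gave 14.8. The ratio was 0.750 (interval 0.631 to 0.889), so both genes of the gate were lower at week-3 although cells of both libraries had been sorted for their products. Neither passed the 2-fold limit, and Kit lay at percentile 25.5 and Ly6a at percentile 29.7 of the log2 ratios of all tested genes.

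Cd34 and Cd27 were lower at week-3, as the gate genes were, and again by less than 2-fold. Cd34 (ENSMUSG00000016494, plus strand of chromosome 1, from 194938819 to 194961279) encodes a sialomucin of progenitor and endothelial surfaces. The FPKM was 60.9 from 3804 week-0 reads and 39.9 from 1523 week-3 reads. Its log2 ratio of -0.61 (interval -0.70 to -0.52) was the lowest of the 9. Cd27 (ENSMUSG00000030336, minus strand of chromosome 6, from 125232622 to 125237010) encodes a receptor of the tumor necrosis factor receptor family whose ligand is CD70. With 1330 week-0 reads its FPKM was 49.6, and with 570 week-3 reads it was 34.7, a log2 ratio of -0.51 (interval -0.66 to -0.37).

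Cd48 (ENSMUSG00000015355, plus strand of chromosome 1, from 171682009 to 171705258) encodes a lipid-anchored member of the SLAM family and a ligand of CD244. It went the other way from Cd34 and Cd27, with an FPKM of 73.3 from 841 week-0 reads and 101.9 from 715 week-3 reads. The log2 ratio was 0.48 (interval 0.33 to 0.62), under the 2-fold limit. Ly6e (ENSMUSG00000022587, plus strand of chromosome 15, from 74955051 to 74959905), a lipid-anchored relative of Sca1, had by far the most reads of the 9, with 10687 in the week-0 and 7074 in the week-3 library. Its FPKM was 134.7 and then 145.8, a log2 ratio of 0.11 (interval 0.07 to 0.16). This is less than the shift that another scaling makes. With TMM scaling, which lowers every log2 ratio by 0.11, the log2 ratio of Ly6e was 0.00 (interval -0.04 to 0.05), and with median-of-ratios scaling it was 0.03 (interval -0.02 to 0.07), so no direction is given for it.

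The largest difference was that of Ly6c2 (ENSMUSG00000022584, minus strand of chromosome 15, from 75108158 to 75111970). Its 1118 week-0 reads gave an FPKM of 40.3, and its 3148 week-3 reads gave 185.7. The ratio was 4.60 (interval 4.30 to 4.93), a log2 ratio of 2.20, at percentile 98.4 of all tested genes. Its neighbour Ly6c1, from which a read can be hard to separate, had 20 week-0 and 26 week-3 reads, a log2 ratio of 1.09 (interval 0.19 to 2.01). Reads assigned to Ly6c1 were thus far fewer than those of Ly6c2 in both libraries, and adding them would change the Ly6c2 counts little. They cannot show how many reads assigned to Ly6c2 came from Ly6c1, since the treatment of reads that fit both genes is not known.

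Both Fc receptor genes were also higher at week-3. Fcgr3 (ENSMUSG00000059498, minus strand of chromosome 1, from 171051174 to 171064935) encodes an activating receptor for IgG that signals through the chain encoded by Fcer1g. The FPKM was 9.70 from 236 week-0 reads and 37.5 from 558 week-3 reads. The log2 ratio was 1.95 (interval 1.73 to 2.18), at percentile 97.8. Fcgr2b (ENSMUSG00000026656, minus strand of chromosome 1, from 170958617 to 170976547) encodes the inhibitory IgG receptor, which recruits the phosphatase encoded by Inpp5d. With 174 week-0 reads its FPKM was 3.64, and with 292 week-3 reads it was 9.98, a log2 ratio of 1.46 (interval 1.18 to 1.74) and percentile 95.3. The ratio of Fcgr3 to Fcgr2b reads was 1.41 times as high at week-3 as at week-0 (exact conditional 95% interval 1.10 to 1.81). By this interval, which takes reads as independent, the difference between these libraries was larger for the activating than for the inhibitory receptor. How reads that fit both receptors were counted is not known. The library kit does not mark strand, so antisense neighbours were checked. Gm38204, which shares 155 exon bases with Fcgr2b, had 0 reads in both libraries, and Gm16897, which shares 148 exon bases with Cd34, had 11 in each. These counts cannot show which gene reads in the shared bases came from, since their assignment is not known.

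**Figure D2:**
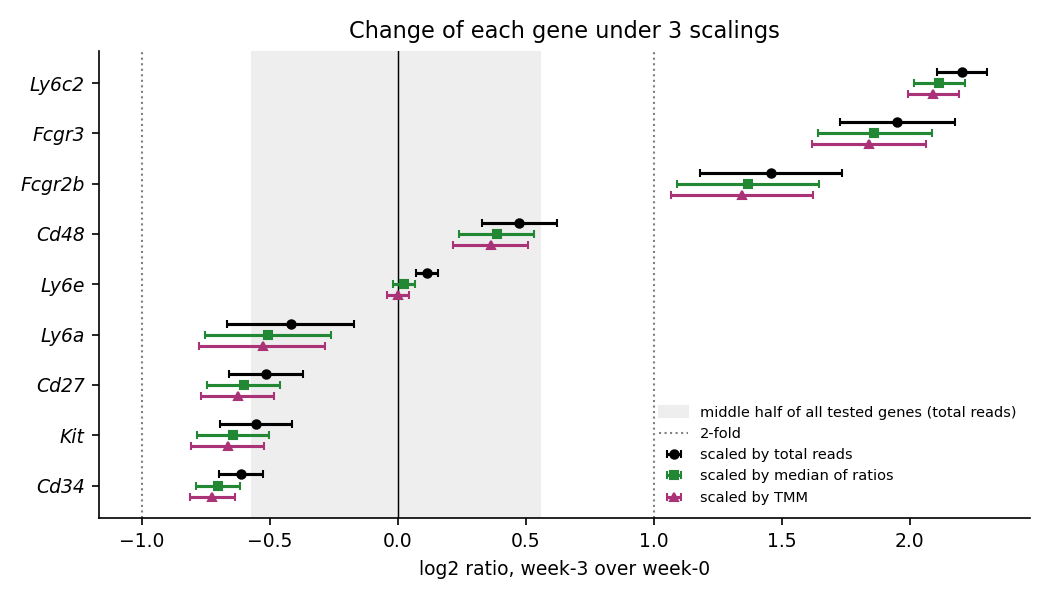
log2 ratio of week-3 over week-0 for each gene with total-read, median-of-ratios and TMM scaling; bars are 95% counting intervals, the grey band spans the quartiles of all tested genes and dotted lines mark 2-fold. Ly6c2, Fcgr3 and Fcgr2b lie beyond 2-fold under each of the 3 scalings, and Ly6e lies at 0.11, 0.03 and 0.00.

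Counts of genes within a library can be set against each other without any scaling between libraries, and Kit was used as the reference. The reads of Cd34 relative to Kit were 0.960 times as high at week-3 as at week-0 (exact conditional 95% interval 0.856 to 1.08). For Cd27 the change was 1.03 (interval 0.893 to 1.18), and for Ly6a it was 1.10 (interval 0.901 to 1.34). The intervals of these 3 genes included 1, so a difference of these genes from Kit was not detectable beyond counting error. Cd48 relative to Kit was 2.04 times as high at week-3 (interval 1.77 to 2.35), and Ly6e 1.59 times (interval 1.43 to 1.76). For Fcgr2b the change was 4.02, for Fcgr3 5.67 and for Ly6c2 6.75 (interval 5.99 to 7.62). Within the Ly6 genes, Ly6c2 relative to Ly6a was 6.14 times as high at week-3 (interval 5.11 to 7.40). Cd34 relative to Cd48, 2 markers that divide the gate, was 0.471 times as high (interval 0.419 to 0.530).

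**Figure D3:**
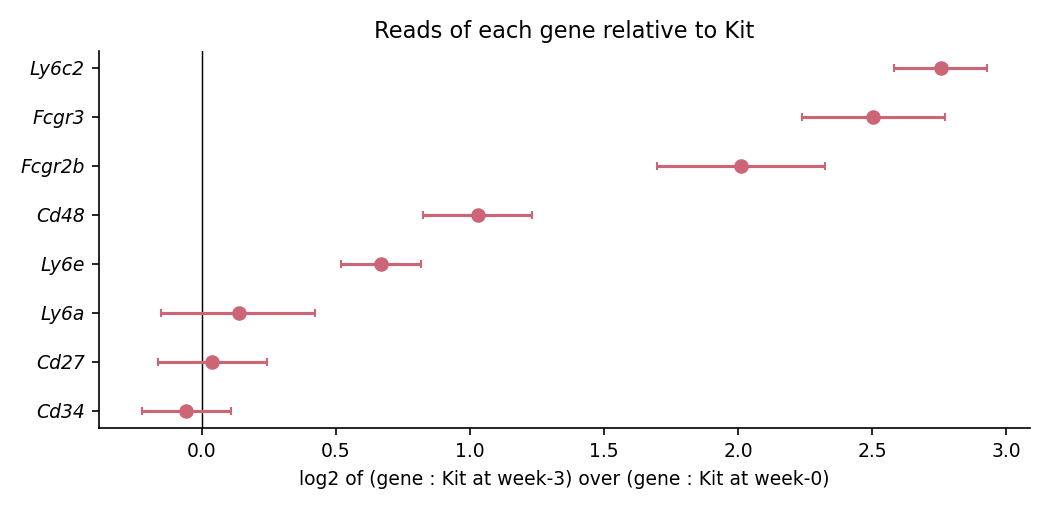
log2 change between the libraries in the reads of each gene relative to the reads of Kit in the same library, with exact conditional 95% intervals of the counts. Cd34, Cd27 and Ly6a have intervals that include 0, and the other 5 genes lie above 0.

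The order of the levels also differed between the libraries. By deposited FPKM, the order at week-0 was Ly6e, Cd48, Cd34, Cd27, Ly6c2, Ly6a, Kit, Fcgr3 and Fcgr2b, and the Poisson 95% intervals of neighbours did not overlap. At week-3, Ly6c2 came first, followed by Ly6e, Cd48, Cd34, Fcgr3, Cd27, Ly6a, Kit and Fcgr2b. There the intervals of Cd34 and Fcgr3, of Fcgr3 and Cd27, and of Kit and Fcgr2b overlapped, so these neighbours did not differ beyond counting error. Ly6c2 moved from position 5 to position 1 and Fcgr3 from position 8 to position 5.

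The length behind the FPKM bears on this order. The deposited FPKM of all 9 genes were those obtained when the reads are divided by the summed length of every distinct exon in GENCODE M21, with overlapping exons of different transcripts counted each time. Kit was divided by 12958 bases in this way, although its merged exons cover 8911 bases and its longest transcript 5241. Ly6e, with 16 transcripts, was divided by 12485 bases, 3.30 times its merged exon length of 3784, and Ly6a by 3452, 2.86 times its merged length of 1205. Of 17919 genes with reads at week-0 and an entry in GENCODE M21, 73.3% had a deposited FPKM within 1% of this rule. A gene with many annotated transcripts therefore has a lower FPKM than merged exons would give, and the ratio between the libraries is not touched.

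When FPKM were recomputed with merged exon lengths, Ly6e was first in both libraries, at 444 at week-0 (interval 436 to 453) and 481 at week-3. Ly6c2 was then at 64.2 and 296, in position 2 at week-3. On the same scale Ly6a, at 56.7 and 42.5, stood above Kit, at 24.6 and 16.7. Cd48 was at 111 and 155, Cd34 at 82.1 and 53.8, Cd27 at 89.9 and 63.0, Fcgr3 at 21.4 and 82.7, and Fcgr2b at 4.73 and 13.0. Fcgr3 was above Kit at week-3 whichever of the 3 lengths was used. At week-0 it was below Kit by deposited FPKM and by longest transcript, while by merged exons the intervals overlapped (18.7 to 24.3 for Fcgr3 and 23.3 to 25.9 for Kit).

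**Figure D4:**
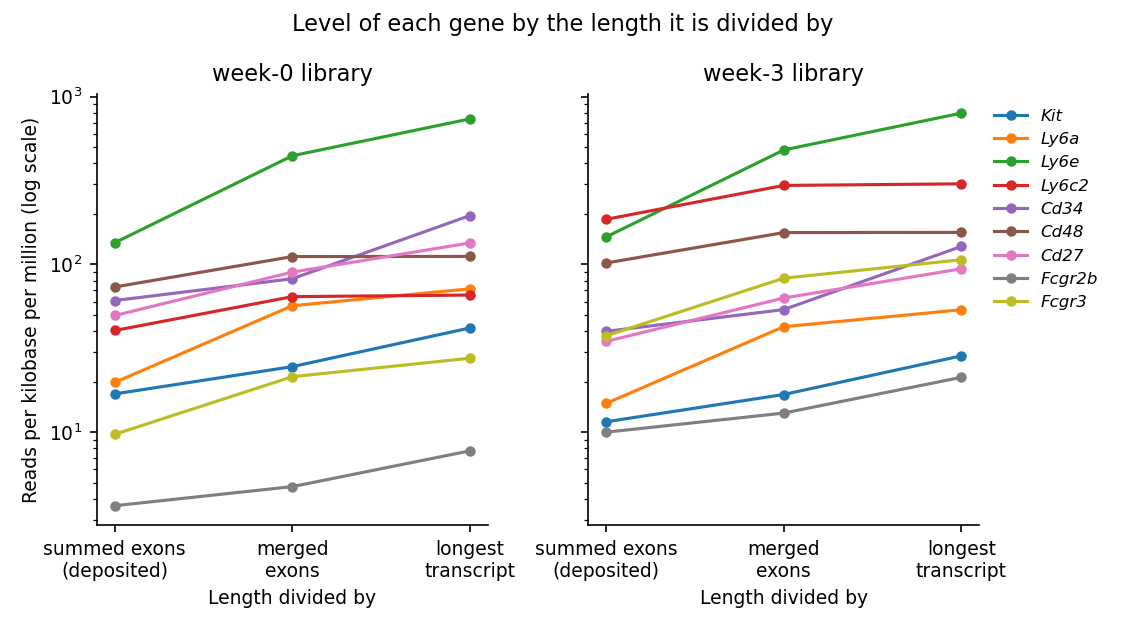
FPKM (reads per kilobase, scaled by total reads, on a log axis) of each gene in the week-0 (left) and week-3 (right) libraries when the length is the summed distinct exons behind the deposited FPKM, the merged exons or the longest transcript of GENCODE M21. Ly6e ranks second at week-3 by deposited FPKM and first by both other lengths, and Fcgr2b is lowest throughout.

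Other genes used to divide the LSK gate were compared as a list of 14 that also holds Kit, Ly6a and Cd34. Of these, 6 were past 2-fold and lower at week-3, 1 was higher and 7 were neither, with a median log2 ratio of -0.78 beside 0.07 over all tested genes. Flt3, a cytokine receptor of lymphoid-primed progenitors, had 6177 week-0 and 934 week-3 reads (log2 ratio -2.02), and Il7r, the interleukin-7 receptor, 42 and 7 reads (log2 ratio -1.88). Eng, a coreceptor for TGF-β family ligands found on stem cells, had 1402 and 287 reads (log2 ratio -1.58). These 3 genes were named because they were past 2-fold, which Kit, Ly6a, Cd34 and Cd27 were not. The sizes of their differences are therefore not compared.

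Of 16 genes of the Ly6 family, only 5 had at least 20 reads in both libraries together. Ly6c2 and Ly6c1 were past 2-fold and higher, Ly6d was past it and lower, and Ly6a and Ly6e were neither. With TMM or median-of-ratios scaling Ly6c1 was no longer past 2-fold, which left 1 gene of the list higher. Ly6d, a marker of early B-lineage progenitors, had 235 week-0 and 13 week-3 reads, a log2 ratio of -3.47 (interval -4.40 to -2.66). Ly6g, the granulocyte antigen targeted by the usual lineage panel, had 5 reads in each library, which is close to the 3 reads that a count of 0 still allows. Ly6a, Ly6e and Ly6c2 are also known to respond to interferon. In a list of 14 interferon response genes, 11 were tested, 0 were past 2-fold and higher and 5 were lower, with a median log2 ratio of -0.99. Oasl2 had 155 and 13 reads (log2 ratio -2.87), Rsad2 71 and 13 (-1.74), Irf7 227 and 43 (-1.69), and Iigp1 31 and 0.

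In the list of 8 genes of the Fc gamma receptor system, 6 were tested, of which Fcgr3 and Fcgr2b were past 2-fold upwards and 3 downwards (median log2 ratio -0.17). Inpp5d, the phosphatase recruited by the inhibitory receptor, had 1562 week-0 and 324 week-3 reads (log2 ratio -1.56), and Syk, a kinase downstream of activating Fc receptors, 1235 and 363 (log2 ratio -1.06). Fcer1g, named for its role as the signalling chain of Fcgr3 after its values were seen, had 565 and 550 reads, a log2 ratio of 0.67 (interval 0.50 to 0.84). The other receptors of the family had few reads, with 0 and 6 for Fcgr1 and 0 and 13 for Fcgr4.

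Of 12 genes of the SLAM family and its adaptors, Cd48 among them, 8 were tested, 2 were past 2-fold upwards and 2 downwards (median log2 ratio 0.19). These 4 rested on few reads. Slamf1, which encodes the stem cell marker CD150, had 10 and 15 reads (log2 ratio 1.29, interval 0.04 to 2.61), Sh2d1b1 6 and 14, Slamf6 21 and 5, and Slamf7 37 and 2. Cd244, whose product binds CD48, had 162 and 118 reads and a log2 ratio of 0.25 (interval -0.10 to 0.60). Of 7 genes in a list of Cd27 and its partners, 6 were tested and none was past 2-fold. The median log2 ratio, which includes Cd27, was -0.10, and Cd70, the ligand, had 0 reads in both libraries. Of 5 genes in a list of Cd34 and its family and partners, 4 were tested and 2 were past 2-fold and lower. These were the related sialomucin gene Podxl with 27 and 4 reads and the adaptor gene Crkl with 467 and 86. The median log2 ratio, which includes Cd34, was -1.17.

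A list of 18 genes held Kit itself and genes for its ligand, signalling partners and transcriptional regulators, and 17 of them were tested. Of these, 15, Kit among them, were within 2-fold and 2 were lower at week-3, with a median log2 ratio of -0.33 that includes Kit. Sh2b3, an adaptor that restrains c-Kit signalling, had 987 week-0 and 113 week-3 reads (log2 ratio -2.42, interval -2.71 to -2.14), and the kinase gene Fyn had 228 and 40 (log2 ratio -1.80). Kitl, the ligand, had 2 reads and 0 reads, fewer than a count of 0 allows.

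Markers of other cell types moved between the libraries along with these genes. All 8 mast cell genes were past 2-fold and higher at week-3, and together they summed to 129 CPM in the week-0 and 3961 CPM in the week-3 library (CPM, counts per 1000000 reads on genes). Cma1 had 4 and 3361 reads and Fcer1a 1 and 465, while Tpsb2 went from 0 to 5442 reads and Mcpt4 from 0 to 93. The median log2 ratio of the list was 7.59, and 5.63 with genes at 0 set to 3 reads. All 7 tested genes of 8 neutrophil genes were past 2-fold and higher, from 2552 to 10382 CPM in sum, with a median log2 ratio of 2.26. Elane, encoding neutrophil elastase, had 5454 and 18391 reads, and Ltf, Camp and S100a9 had log2 ratios of 2.69, 2.31 and 2.26. Mast cells carry c-Kit and both Fc receptors, and neutrophil and monocyte precursors carry Ly6C and CD16/32. The lineage selection is meant to remove mature neutrophils. The part of these cells in the values of Ly6c2, Fcgr3, Fcgr2b and Kit was not tested.

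In the opposite direction, 4 of 5 tested genes of 7 B cell and plasma cell genes were past 2-fold and lower at week-3, from 4408 to 486 CPM in sum (median log2 ratio -5.03). Ighm had 22231 and 1573 reads, Jchain 5120 and 96, Mzb1 218 and 1, and Cd79a 114 and 2. All 6 erythroid genes were past 2-fold and lower, from 909 to 69.7 CPM in sum (median log2 ratio -2.04), with 2036 and 32 reads for Hba-a1, 3032 and 143 for Hbb-bs, 593 and 68 for Car1 and 52 and 10 for Klf1. B-lineage cells carry Fcgr2b, and erythroid precursors carry c-Kit. Depletion and staining for lineage antigens are meant to remove mature cells of both kinds before the sort. The part of such cells in the values of Fcgr2b and Kit was not tested.

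**Figure D5:**
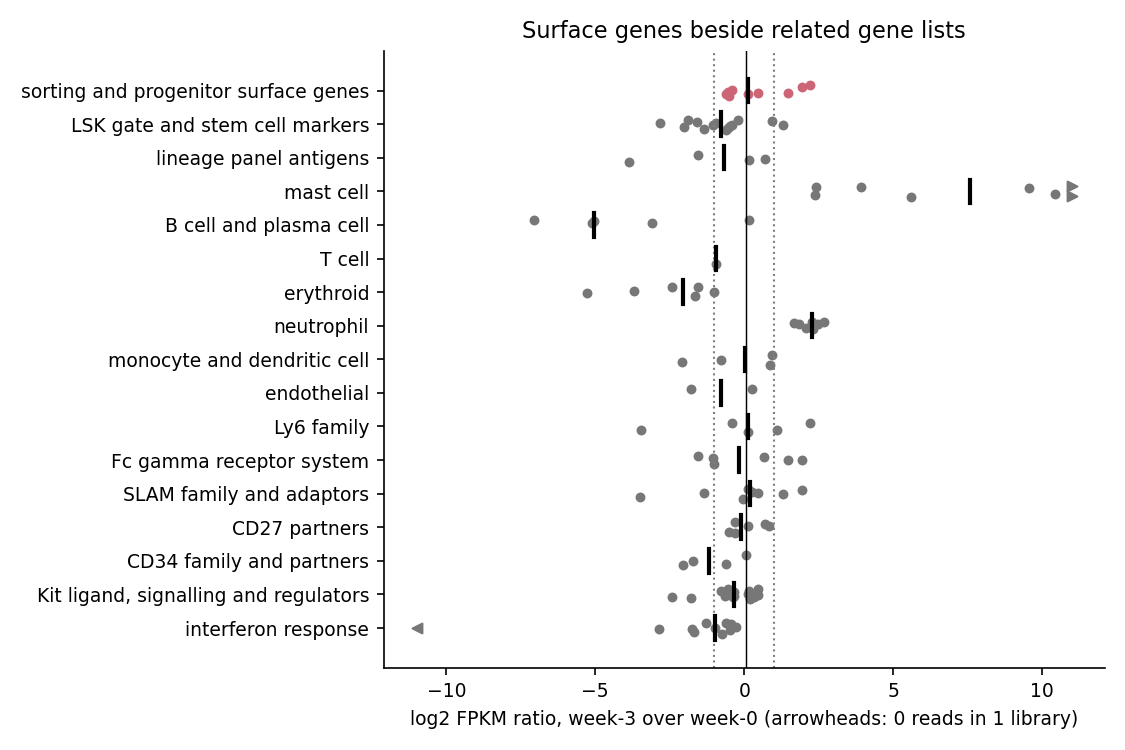
log2 FPKM ratio of week-3 over week-0 for every tested gene of each list; points are genes, thick bars list medians, the thin line the median of all tested genes, dotted lines 2-fold and arrowheads genes with 0 reads in 1 library. The 9 surface genes (red) spread from -0.61 to 2.20. This lies between the medians of the B cell and erythroid lists on the left and of the neutrophil and mast cell lists on the right. Some genes of the B cell and neutrophil lists fall inside this spread.

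Promoter windows from 250 bases before to 50 after a RefSeq start on GRCm38.p6 were found for 7 of the 9 genes, as 10 windows. On either strand, none held the STAT motif TTCNNNGAA, the core of the interferon-stimulated response element, or AGATAA, which the product of Gata2 and its relatives bind. Of all 32851 promoter windows, 8.30%, 3.44% and 11.2% held these motifs, in the order given. No promoter window was found for Ly6a or Ly6e.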

How the data were processed

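RNA of sorted LSKs was amplified as cDNA by the authors (SMARTer Ultra Low Input, a chemistry that does not mark strand), and paired-end reads of 100 bases were trimmed and mapped by the authors to GRCm38 (mm10) with TopHat2 2.0.9. The authors deposited whole-number read counts per gene, without normalization. They also deposited FPKM, which, as the values show, divide these counts by exon length and by the reads counted on genes. The counting tool and annotation release are not given in the sources used here. Tables were joined by Ensembl identifier and annotated with GENCODE M21. A symbol on 2 rows, Itgam, was taken from the row that GENCODE gives this name.

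With 1 library per time point, no test of the conditions was made and no p-value is given. Genes with at least 20 reads over both libraries were counted as tested. Ratios were taken from FPKM without a pseudocount. Intervals at 95% (Clopper-Pearson for ratios between libraries, Poisson for levels, conditional odds ratio for gene pairs) and the floor of 3 reads, 0.472 CPM at week-0 and 0.772 CPM at week-3, cover counting error only, since amplified reads are not independent molecules. Scaling alternatives used TMM of edgeR 4.0.16 and size factors of DESeq2 1.42.0 in R 4.3.3, and the exact test of edgeR with an assumed biological coefficient of variation of 0.1 or 0.4 was an alternative rule for calls. Python 3.11.15, scipy 1.17.1 and Biopython 1.88 were used, and the interval and the edgeR step were tested on simulated data.

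The members, the lists and the rules were chosen with earlier results of these data known. Named are the 9 genes, Bcr and Abl1, marker genes at 0 reads, and from each list at most the 4 genes with the largest log2 ratio among those past 2-fold. Fcer1g, Cd244, Cd70, Kitl, Fcgr4, Ly6g, Csf1r, Cd14, Ly86, Ptprc, Itgam and Lck fall outside this rule and were named after their values were seen. Some genes that the rule would name are not reported here.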

Additional observations from a re-analysis of the deposited data

How the results depend on the processing

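No paired analysis was possible because each time point has 1 library, and for the same reason no library could be left out. Ly6c2, Fcgr3 and Fcgr2b were past the limit with either other scaling and with a counting interval without 1. Other read minimums could not change this, since each of these genes had more than 100 reads in each library. The same genes also passed with edgeR's exact test at an assumed biological coefficient of variation of 0.1. Limits of 1.5 and 0.67 added Cd34, so that 4 of the 9 passed, beside 5918 of all 12192 tested genes. With an assumed coefficient of 0.4, 0 of the 9 passed the q-value limit, and 249 of all genes did, so that passing rests on an assumed variation that 1 library per time point cannot supply. All 9 log2 ratios were within their counting intervals with pseudocounts of 0.1 and 1. TMM scaling moved Ly6e to 0.0021, Ly6c2 to 2.09 and Cd34 to -0.72, outside their intervals, and median-of-ratios scaling moved Ly6e to 0.025 and Cd34 to -0.70. The number of all genes past the limit was 3196, and it was 5918 with limits of 1.5 and 0.67, 9040 with at least 1 read and 1667 with at least 100 reads. The order of levels by merged exons or longest transcript was an alternative chosen after seeing the data. Either other scaling put Lck past 2-fold, took Ly6c1 below it, and raised the lower genes from 6 to 7 in the list of LSK markers and from 5 to 6 in the interferon list. Depth limits the genes with few reads, such as Slamf1 and Ly6c1.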

Other observations

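The remaining marker lists held few reads. Of 6 lineage panel antigens, 4 were tested and 2 were past 2-fold and lower at week-3, among them Cd5 with 24 and 1 reads, and the list summed to 124 CPM in the week-0 and 133 CPM in the week-3 library (median log2 ratio -0.70). Cd3e had 5 and 0 reads. Itgam, which encodes CD11b, had 30 reads in each library, a log2 ratio of 0.71 (interval -0.07 to 1.49) given the lower week-3 total. Ptprc, whose protein CD45 includes the B220 form but is present on most blood cells, had 707 and 478 reads and a log2 ratio of 0.14 (interval -0.03 to 0.31).

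Among 6 T cell genes, Lck alone had enough reads to be tested, with 313 and 100 (log2 ratio -0.94), and the list summed to 51.9 and 26.8 CPM. Of 6 monocyte and dendritic cell genes, 4 were tested and 1 was past 2-fold, Siglech, with 21 week-0 and 3 week-3 reads (median log2 ratio 0.03, with 75.2 and 80.3 CPM in sum). Csf1r, the receptor for the macrophage growth factor, had 110 and 127 reads, a log2 ratio of 0.92 (interval 0.54 to 1.30). It was thus under the 2-fold limit that Ly6c2 and Fcgr3 passed. The other tested genes under the limit went opposite ways. Ly86 had 66 and 73 reads (log2 ratio 0.86), and Cd14 had 278 and 98 (log2 ratio -0.79). Of 4 endothelial genes, 2 were tested (median log2 ratio -0.77), and the list summed to 59.0 and 53.5 CPM. Emcn was past 2-fold and lower with 108 and 19 reads. Cdh5 had 3 and 0 reads and Kdr 4 and 0, too few to be tested.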
